A study of Mus musculus with 6 samples.

Results

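The mitosis and spindle genes are a list of 45 genes that a dividing cell uses to condense, attach and separate its chromosomes and then to split in 2. They were matched by symbol in a count table of 57186 genes. All 45 were found, and all 45 passed the filter on low counts that left 17837 genes for testing. The libraries are bulk RNA-seq of cells sorted as CD45-negative, that is, without the common leukocyte antigen, from tumours of MB49, a cell line of mouse bladder cancer that came from a male. The Y-KO group is 3 libraries from tumours of MB49 cells with genotype CRISPR Y-KO, which stands for CRISPR removal of the Y chromosome. The Y-Scr group is 3 libraries from tumours of MB49 cells with genotype CRISPR Y-Scr, the scrambled control. Hosts were C57Bl/6J mice that received either line subcutaneously, the tumour volume at collection was 500 mm3, and all 6 libraries carry batch label 1. Whether either line was 1 clone, whether animals were pooled and whether replicates came from separate animals are not given in the sources used here. The p-values therefore reflect only how far these libraries vary within a group, a spread that may be technical.

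Cells enter mitosis when Cdk1, bound to cyclin A2 or a B-type cyclin, is activated. Aurora and Polo-like kinases then build the spindle, the kinetochore ties each chromosome to microtubules, and the spindle checkpoint holds back the anaphase-promoting complex (APC/C), a ubiquitin ligase, until every chromosome is attached. Genes of this programme are transcribed together late in the cell cycle, so their RNA is widely read as a sign of how many cells in a tumour are cycling. In bulk RNA, fewer dividing cells and less RNA per dividing cell cannot be told apart.

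Library totals ran from 42040955 to 52951031 counts, and the lowest count of any of the 45 genes in any library was 783. An earlier analysis of these libraries found Y-KO replicates 1 and 2 close to each other and Y-Scr replicates 2 and 3 close to each other (the close pairs below), so Y-KO replicate 3 is given beside replicates 1 and 2 throughout. RNA of the sorting marker was present all the same. Ptprc, which encodes CD45, stood at 293, 298 and 134 CPM (counts as a share of the TMM-scaled library size) in Y-KO replicates 1, 2 and 3, and at 521, 577 and 601 CPM in Y-Scr replicates 1, 2 and 3. The epithelial and urothelial markers did not go one way. Of 10 listed, 8 were tested, of which 4 were higher in Y-KO (Krt8, Krt14, Krt18 and Krt19) and 1 lower (Epcam). Over all genes tested, 7.82% were higher and 8.27% lower. The summed level of the 8 markers was between 3276 and 3468 CPM in Y-KO and between 2408 and 2736 CPM in Y-Scr. Krt8 made up most of that sum, with 1914 to 2131 CPM in Y-KO and 1414 to 1641 CPM in Y-Scr, while Epcam peaked at 1.22 CPM among Y-KO libraries, against 4.62 CPM among Y-Scr libraries, and Upk3a was at 0 counts in all 6 libraries.

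Transcripts of the mitosis and spindle genes stood slightly higher in Y-KO tumours, and most of that difference came from Y-KO replicates 1 and 2. Summed over the 45 genes, the level was 4865, 4891 and 3939 CPM in Y-KO replicates 1, 2 and 3, against 3894, 3915 and 3917 CPM in Y-Scr replicates 1, 2 and 3. The Y-Scr libraries thus lay close together, Y-KO replicates 1 and 2 lay clearly above them, and Y-KO replicate 3 lay just above them. In edgeR's quasi-likelihood test with Benjamini-Hochberg adjustment over all genes, 9 of the 45 rose in Y-KO (adjusted p under 0.05), beside 7.82% of all genes tested. None was lower at that threshold, beside 8.27% of all genes. At an unadjusted p under 0.05, 23 were higher, beside 15.1% of all genes, and 0 were lower. DESeq2 called 17 higher and 0 lower, beside 10.3% of all genes higher, and limma-voom 12 higher and 0 lower, beside 8.55% higher. The median log2 fold change (Y-KO over Y-Scr) was 0.26, with quartiles of 0.11 and 0.42, against -0.03 over all genes. Of the 45 fold changes 39 were positive, beside 47.5% of all genes.

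The number of calls depended on single libraries. It was 30 without Y-KO replicate 3, where 16% of all genes were called higher, and 1 without any other single library, where the share of all genes was 3.86% (Y-KO replicate 1 left out), 3.9% (Y-KO replicate 2), 5.2% (Y-Scr replicate 1), 2.45% (Y-Scr replicate 2) or 2.56% (Y-Scr replicate 3). The gene still called each time was Ube2c, and the other 8 then had edgeR adjusted p from 0.0538 to 0.174. With each close pair of libraries summed into 1 sample, 0 members were called, beside 0.7% of all genes, and the median log2 fold change was 0.22. With DESeq2 size factors 10 members were called, beside 8.08%, with no filter on low counts 17, beside 5.24%, and with the replicate number as a block 7, beside 5.3%. When libraries were scaled by size alone, the median over all genes moved to -0.17, that of the mitosis and spindle genes was 0.12, and 1 member was called, beside 4.09% of all genes.

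**Figure D1:**
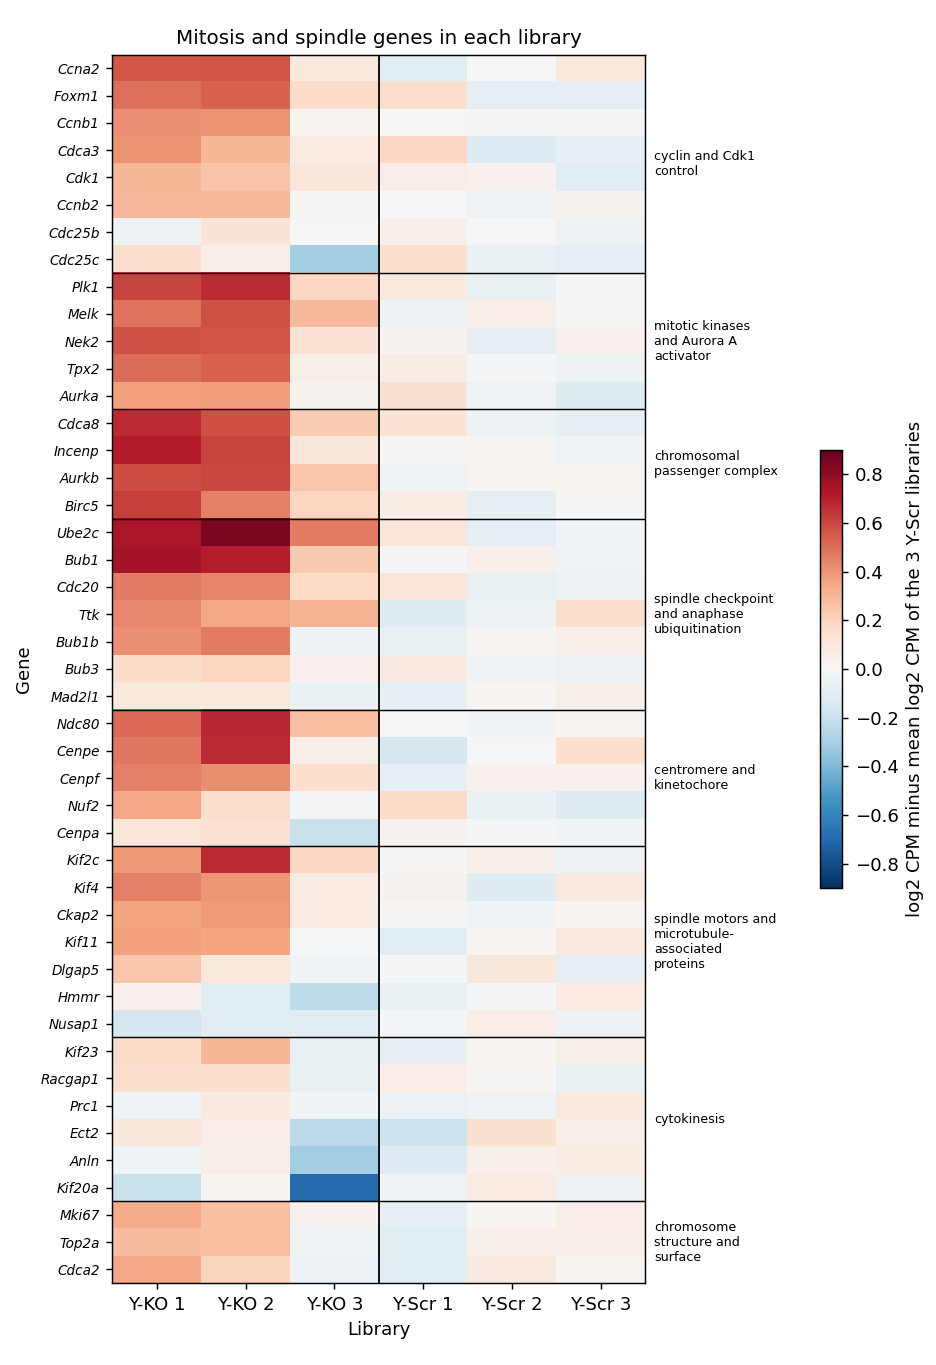
Level of each of the 45 mitosis and spindle genes (rows, by role) in each library (columns, Y-KO left of Y-Scr) as log2 CPM minus the mean log2 CPM of the 3 Y-Scr libraries. Y-KO replicates 1 and 2 are above every Y-Scr value in 35 of 45 genes, while Y-KO replicate 3 is below both of them in 42 of 45. Over all genes tested, replicate 1 alone is above in 35.7% and replicate 2 alone in 35.3%, and replicate 3 is below both in 39.2%. The darkest blue is Kif20a in Y-KO replicate 3.

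Y-KO replicate 3 was lower than both other Y-KO libraries in 42 of the 45 genes, higher than both in 0 and between them in 3, beside 39.2% lower and 38.5% higher over all genes tested. On the log2 CPM scale the median distance above the Y-Scr mean was 0.37 for Y-KO replicates 1 and 2 averaged, and 0.04 for Y-KO replicate 3. Replicates 1 and 2 both stood above every Y-Scr value in 35 genes and both below in 1, the spindle gene Nusap1. Taken singly, replicate 1 stood above in 37 genes (82.2%), beside 35.7% of all genes tested. Replicate 2 did so in 36 (80%), beside 35.3%. The share of all genes with both above was not computed. Replicate 3 stood above every Y-Scr value in 18 genes (40%), a share near the 34.9% of all genes tested. It stood within the Y-Scr range in 20 and below it in 7, beside 6779 of all 17837 genes tested below it. The 7 were Cdc25c, Cenpa, Hmmr, Nusap1, Anln, Ect2 and Kif20a. The 9 called genes were all among the 18, which is not a separate observation, since replicate 3 is one of the values behind each call. The 3 Y-KO and 3 Y-Scr values did not overlap in 19 of the 45 genes, 18 with Y-KO higher and 1 with Y-KO lower, beside 37.7% of all genes in either direction and 17.5% with Y-KO higher.

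Markers of other cell types also differed between the groups and between Y-KO libraries. Their counts by edgeR stand beside 7.82% of all genes higher and 8.27% lower in Y-KO. Over 12 pan-leukocyte markers, of which 5 were lower in Y-KO by edgeR, the summed level ran from 1494 to 3182 CPM in Y-KO and from 3858 to 4001 CPM in Y-Scr, with no marker at 0. Over 12 T and NK cell markers, of which 10 were lower, it ran from 136 to 251 CPM in Y-KO and from 673 to 727 CPM in Y-Scr, again with no marker at 0. The 10 macrophage markers, of which 6 were higher and none was at 0, summed to 1722, 1726 and 834 CPM in Y-KO replicates 1, 2 and 3 and to between 855 and 930 CPM in Y-Scr. Within Y-KO, the pan-leukocyte, T and NK cell and macrophage sums were lowest in replicate 3, as was the mitosis sum. So were the endothelial and erythroid sums, while the fibroblast sum and the epithelial and urothelial sum were highest there. Of 10 fibroblast markers 3 were lower. The sum of all 10 was 173, 178 and 624 CPM in Y-KO replicates 1, 2 and 3, and 946 to 1005 CPM in Y-Scr. Dcn made up most of it in Y-KO replicate 3, with 54.1, 57.6 and 423 CPM in Y-KO and 407 to 441 CPM in Y-Scr. In 2 of the 10, Thy1 among them, Y-KO replicate 3 lay below the mean of Y-KO replicates 1 and 2. Fap was at 0 in Y-KO replicate 1. All 5 erythroid markers were lower, with sums of 1.07, 1.04 and 0.931 CPM in Y-KO and of 272, 253 and 230 CPM in Y-Scr. Of 6 endothelial markers tested none passed in edgeR, 1 was higher and 1 lower at an unadjusted p under 0.05, and their sum ran from 23.6 to 39.6 CPM in Y-KO and from 37.7 to 44.2 CPM in Y-Scr. The part of these cell types in the mitosis values was not tested.

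Promoters of late cell cycle genes often carry a CCAAT box, bound by the factor NF-Y, and the cell cycle genes homology region (CHR), bound by the MuvB core of the DREAM complex, and these elements were searched as known features of such promoters. RefSeq promoters of build GRCm38.p6, taken as the 250 bases before each start site, were at hand for 36 of the 45 genes (39 promoters). CCAAT, on either strand, was present in 31 of the 39 (79.5%), beside 34.8% of promoters of all genes tested. TTTGAA, the only CHR letters searched, on either strand, was present in 14 (35.9%), beside 11.5%, and both elements in 13 (33.3%), beside 4.13%. Matches that overlapped each other were each counted. These shares describe letters in a window and say nothing of binding. A promoter without these exact letters was counted as lacking the element, here and below. Median GC content was 59.6% in the members' promoters and 58.8% in those of all genes tested. As a description, the median log2 fold change was 0.22 in the 11 genes with both, 0.30 in the 18 with 1 of them and 0.17 in the 7 with neither, with 2, 3 and 3 genes called. The 120 bases before the start are shown for 6 promoters, chosen to set called genes with both elements (Ube2c, Cdc20), CCAAT alone (Bub1) or neither (Melk) beside genes that did not pass (Cdk1 with both, Hmmr with CCAAT alone). Capitals mark TTTGAA or CCAAT, or their reverse complements.
Ube2c: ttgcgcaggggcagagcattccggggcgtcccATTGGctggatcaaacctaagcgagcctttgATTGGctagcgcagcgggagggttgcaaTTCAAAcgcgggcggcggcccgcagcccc
Cdc20: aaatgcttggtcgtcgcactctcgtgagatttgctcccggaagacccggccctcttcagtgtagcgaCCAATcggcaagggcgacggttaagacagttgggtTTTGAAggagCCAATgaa
Bub1: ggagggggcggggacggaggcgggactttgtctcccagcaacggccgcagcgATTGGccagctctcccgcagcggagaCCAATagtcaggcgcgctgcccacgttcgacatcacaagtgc
Melk: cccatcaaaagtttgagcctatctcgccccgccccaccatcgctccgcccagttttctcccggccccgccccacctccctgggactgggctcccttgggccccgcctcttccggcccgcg
Cdk1: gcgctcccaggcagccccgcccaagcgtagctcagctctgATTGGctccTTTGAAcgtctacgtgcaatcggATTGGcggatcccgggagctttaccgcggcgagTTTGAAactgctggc
Hmmr: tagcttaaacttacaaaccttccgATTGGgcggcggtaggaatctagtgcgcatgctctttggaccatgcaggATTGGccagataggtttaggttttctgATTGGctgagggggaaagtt
In GRCm38.p6 these windows lie at chr2:164769809-164769928 (plus strand) for Ube2c, chr4:118437344-118437463 (minus) for Cdc20 and chr2:127831860-127831979 (minus) for Bub1. They lie at chr4:44300797-44300916 (plus) for Melk, chr10:69352913-69353032 (minus) for Cdk1 and chr11:40733438-40733557 (minus) for Hmmr. The CHR letters of Ube2c begin 29 bases before the start and those of Cdc20 18 bases before it.

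Among the genes of the spindle checkpoint and of anaphase ubiquitination, 3 of 7 rose in edgeR, beside 7.82% of all genes tested. The largest rise of the 45 genes was here. Ube2c, the ubiquitin-conjugating enzyme that works with the APC/C (chromosome 2, 164611818 to 164620742, GRCm39), had 131, 142 and 109 CPM in Y-KO replicates 1, 2 and 3, against 85.1, 74.7 and 77.7 CPM in Y-Scr replicates 1, 2 and 3. All Y-KO values lay above all Y-Scr values, with means of 127 ± 17.1 and 79.2 ± 5.34 CPM (SD, n = 3 each), so that Y-KO was 1.61-fold higher (log2 fold change 0.69, SE 0.11, edgeR adjusted p = 0.00566). This call was lost with the close pairs summed (log2 fold change 0.61, adjusted p = 0.125, over a range of 1.31e-06 to 0.125 across the alternatives). Bub1, a checkpoint kinase of the kinetochore (chromosome 2, 127643036 to 127673785), had 61.2, 59.5 and 42.9 CPM in Y-KO and 36.1, 37.7 and 35.8 CPM in Y-Scr. It was 1.49-fold higher (log2 fold change 0.58, SE 0.14, edgeR adjusted p = 0.0251), again without overlap and with Y-KO replicate 3 the lowest of the Y-KO libraries. Cdc20, the APC/C activator that the checkpoint restrains (chromosome 4, 118290098 to 118294549), rose 1.29-fold, with 110, 108 and 90.2 CPM in Y-KO and 85.8, 76.2 and 77.3 CPM in Y-Scr (edgeR adjusted p = 0.0468). The checkpoint kinase gene Ttk, the lowest of the 45 per length in Y-Scr, had 24.6, 23.1 and 22.4 CPM in Y-KO and 16.9, 17.6 and 20.3 CPM in Y-Scr, without overlap, but did not pass (log2 fold change 0.36, SE 0.12, edgeR adjusted p = 0.0807). Among other checkpoint genes, Bub1b, Bub3 and Mad2l1 had log2 fold changes of 0.29, 0.13 and 0.04. The 95% interval for Mad2l1 ran from -0.16 to 0.24.

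The chromosomal passenger complex corrects faulty attachments and later guides cytokinesis. Of its 4 genes 3 rose in edgeR, beside 7.82% of all genes tested. In all 4 the Y-KO values lay above all Y-Scr values, beside 17.5% of all genes. With the close pairs summed or with library size alone, 0 of the 4 were called. The same held without any 1 library other than Y-KO replicate 3. Aurkb, the kinase of the complex (chromosome 11, 68936473 to 68942490), had 75.1, 75.9 and 59.4 CPM in Y-KO and 49.0, 50.6 and 50.6 CPM in Y-Scr. It was 1.40-fold higher in Y-KO (log2 fold change 0.49, SE 0.11, edgeR adjusted p = 0.0211). Cdca8, which encodes borealin (chromosome 4, 124812258 to 124833104), had 83.3, 78.2 and 61.1 CPM in Y-KO and 56.9, 50.6 and 49.6 CPM in Y-Scr (log2 fold change 0.50, SE 0.13, edgeR adjusted p = 0.0311). In both genes Y-KO replicate 3 lay between the other Y-KO libraries and Y-Scr. Birc5, which encodes survivin (chromosome 11, 117740077 to 117746569), rose 1.35-fold, with 113, 101 and 84.2 CPM in Y-KO and 77.2, 69.8 and 74.4 CPM in Y-Scr (edgeR adjusted p = 0.0391). The gene of the scaffold, Incenp, had a fold change of like size (log2 0.50, SE 0.15) but a wider spread in Y-KO, at 151, 141 and 98.7 CPM against 92.9, 93.8 and 90.1 CPM in Y-Scr, and did not pass (edgeR adjusted p = 0.0533). The 4 log2 fold changes ran from 0.43 to 0.50.

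Of the mitotic kinase genes and the Aurora A activator, 2 of 5 rose in edgeR, beside 7.82% of all genes tested. Plk1, the Polo-like kinase that acts from mitotic entry to cytokinesis (chromosome 7, 121758662 to 121769096), had 116, 121 and 86.5 CPM in Y-KO and 81, 72.6 and 75.2 CPM in Y-Scr. It was 1.42-fold higher in Y-KO (log2 fold change 0.50, SE 0.13, edgeR adjusted p = 0.0343). Melk, the maternal embryonic leucine zipper kinase (chromosome 4, 44300876 to 44364675), had 51.2, 54.5 and 44.8 CPM in Y-KO and 35.5, 38.1 and 36.2 CPM in Y-Scr (log2 fold change 0.46, SE 0.10, edgeR adjusted p = 0.0202). Neither gene overlapped between the groups. The centrosome kinase gene Nek2, Tpx2, which activates Aurora A on spindle microtubules, and Aurora A itself, Aurka, did not pass, with log2 fold changes of 0.44, 0.37 and 0.26.

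**Figure D2:**
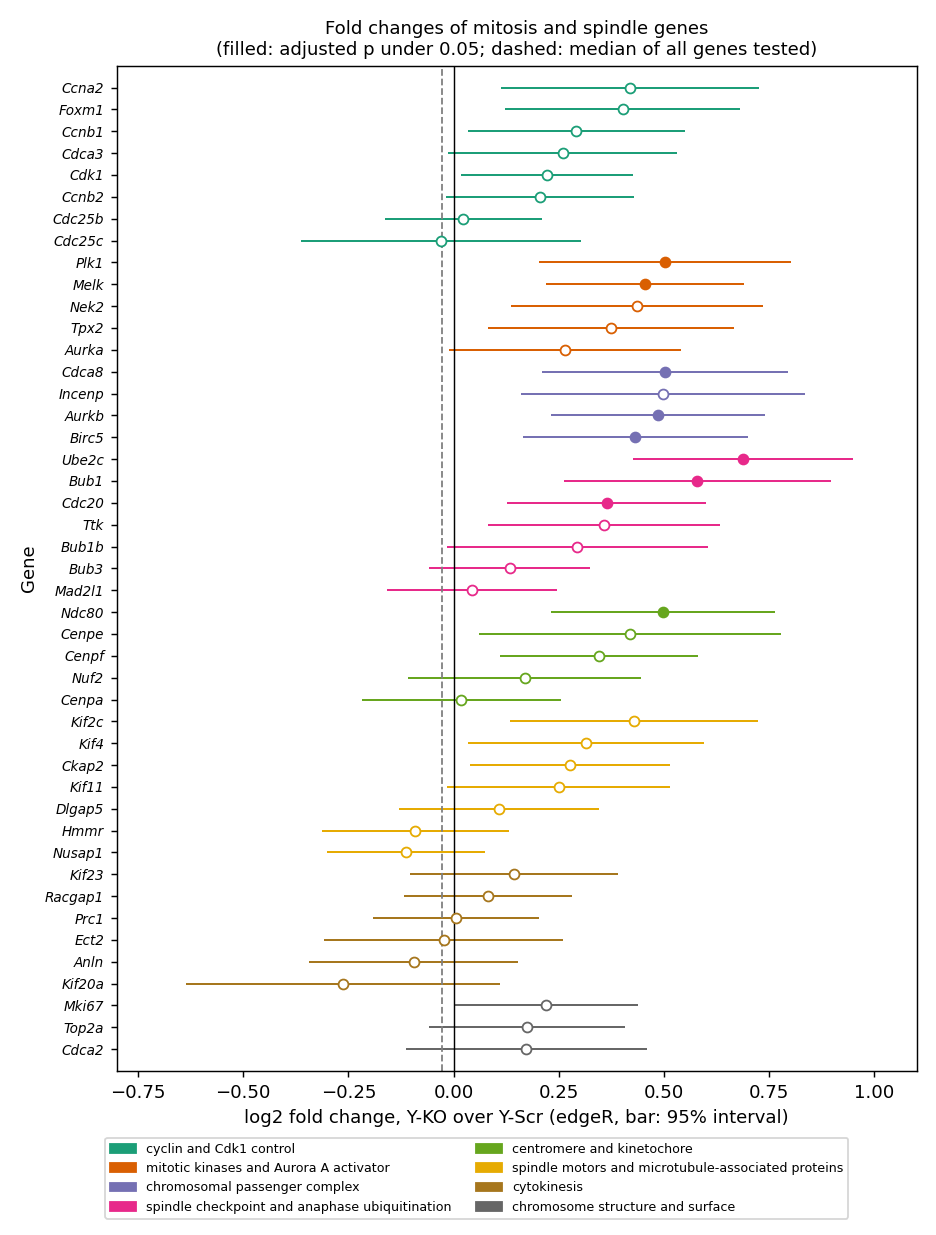
Log2 fold change of Y-KO over Y-Scr for each of the 45 genes (edgeR, 3 libraries a group), with 95% intervals, coloured by role. The 9 filled points are the genes with an adjusted p under 0.05, led by Ube2c at 0.69, the 6 cytokinesis genes lie between -0.26 and 0.14, and the dashed line is the median of all genes tested.

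At the centromere and kinetochore, 1 of 5 genes rose in edgeR, beside 7.82% of all genes tested. Ndc80, a subunit of the complex that grips the microtubule end (chromosome 17, 71803095 to 71833852), had 51.4, 57.9 and 43.6 CPM in Y-KO and 36.2, 35.5 and 36.6 CPM in Y-Scr (log2 fold change 0.50, SE 0.12, edgeR adjusted p = 0.0232). Its partner in that complex, Nuf2, had a log2 fold change of 0.17 (95% interval -0.11 to 0.45) and did not pass. Cenpf had 101, 98.6 and 81.7 CPM in Y-KO and 69.8, 75.6 and 75.6 CPM in Y-Scr, without overlap, and fell just short of the threshold (log2 fold change 0.35, SE 0.10, edgeR adjusted p = 0.0536). Cenpe, a kinesin gene, had a log2 fold change of 0.42, while that of Cenpa, the histone H3 variant that marks centromeres, was 0.02 (95% interval -0.22 to 0.26).

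The cyclin and Cdk1 control genes were higher on average, but none of the 8 passed in edgeR, beside 16.1% of all genes tested. At an unadjusted p under 0.05, 4 were higher, beside 15.1% of all genes. DESeq2 called 2 higher, beside 10.3%, and limma-voom 1, beside 8.55%. Foxm1, a transcription factor of late cell cycle genes, had 89.2, 91.0 and 70.9 CPM in Y-KO and 70.6, 59.7 and 59.8 CPM in Y-Scr, so that Y-KO replicate 3 lay barely above Y-Scr replicate 1 (log2 fold change 0.40, SE 0.12, edgeR adjusted p = 0.0583). For Ccna2, encoding cyclin A2, the values were 143, 144 and 103 CPM in Y-KO and 91.0, 97.2 and 104 CPM in Y-Scr (log2 fold change 0.42, SE 0.13, edgeR adjusted p = 0.0690). Y-KO replicate 3 fell within the Y-Scr range there. Ccnb1, encoding cyclin B1, showed 126, 125 and 96.3 CPM in Y-KO and 94.3, 95.4 and 93.9 CPM in Y-Scr (log2 fold change 0.29, SE 0.11, edgeR adjusted p = 0.120). Ccnb2, encoding cyclin B2, showed 123, 123 and 102 CPM in Y-KO and 101, 98.4 and 103 CPM in Y-Scr (log2 fold change 0.21, SE 0.10, edgeR adjusted p = 0.196). Cdk1 itself had 141, 137 and 123 CPM in Y-KO and 120, 117 and 107 CPM in Y-Scr, without overlap, and did not pass (log2 fold change 0.22, SE 0.09, edgeR adjusted p = 0.134). Both phosphatase genes that activate Cdk1 stood near 0, with log2 fold changes of 0.02 for Cdc25b (95% interval -0.16 to 0.21) and -0.03 for Cdc25c (95% interval -0.36 to 0.30). Cdca3, whose product helps remove the Cdk1 inhibitor Wee1, was at 0.26.

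Among the spindle motors and microtubule-associated proteins, none of 7 genes passed in edgeR, beside 16.1% of all genes tested. At an unadjusted p under 0.05, 3 were higher, beside 15.1% of all genes. DESeq2 and limma-voom called 1 each, all higher, beside 10.3% and 8.55% of all genes higher. Kif2c, a kinesin that takes microtubule ends apart, had 53.6, 65.4 and 46.6 CPM in Y-KO and 40.8, 42.4 and 39.8 CPM in Y-Scr (log2 fold change 0.43, SE 0.13, edgeR adjusted p = 0.0556). Ckap2 had 72.8, 74.0 and 59.7 CPM in Y-KO and 57.1, 55.8 and 57.5 CPM in Y-Scr (log2 fold change 0.28, SE 0.10, edgeR adjusted p = 0.110). Neither overlapped between the groups. Kif4, a motor that sits on chromosome arms, and Kif11, which pushes the spindle poles apart, had log2 fold changes of 0.32 and 0.25, and Dlgap5 of 0.11. Those of Hmmr and Nusap1 were -0.09 and -0.11. For Nusap1 the Y-KO values of 58.8, 61.3 and 61.2 CPM all lay below the Y-Scr values of 64.6, 68.2 and 63.2 CPM, but the gene did not pass (edgeR adjusted p = 0.408).

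**Figure D3:**
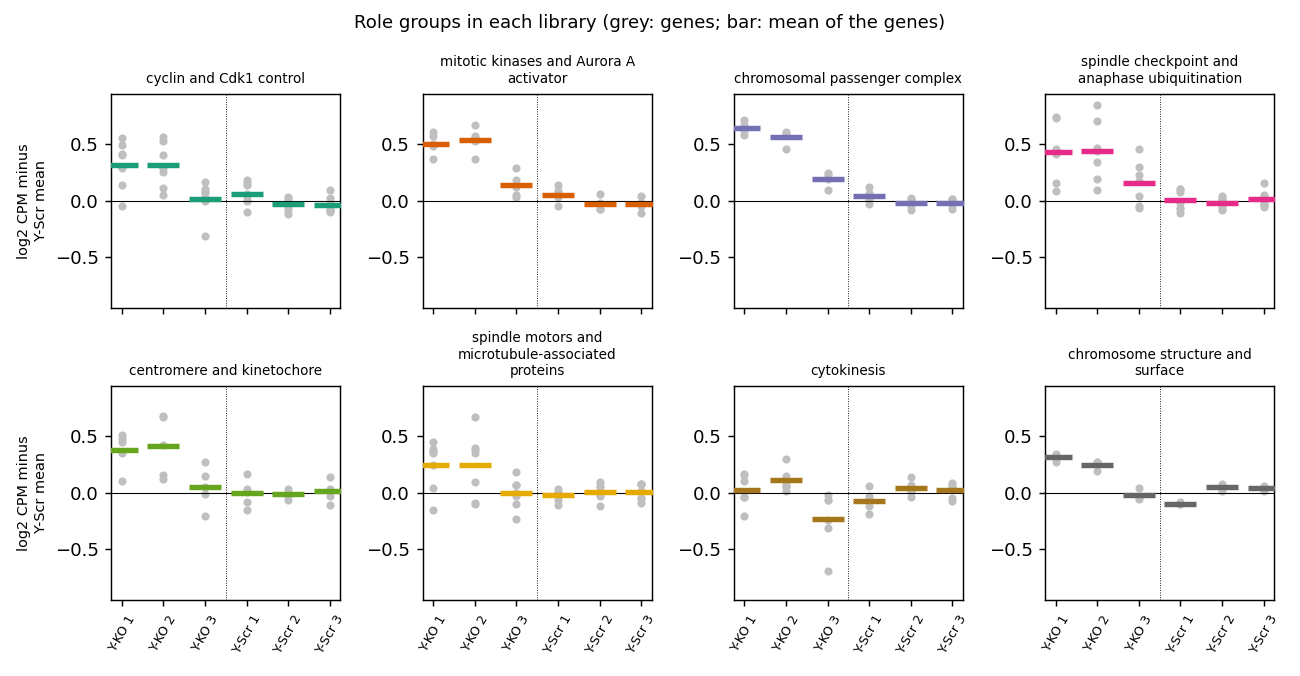
Role groups of the mitosis and spindle genes by library, as log2 CPM minus the Y-Scr mean of each gene (grey points, genes; coloured bars, mean of the group's genes). The passenger complex genes are above 0 in every Y-KO library. Averaged over Y-KO replicates 1 and 2, the cytokinesis genes have a mean of 0.07 and run from -0.09 to 0.24. In Y-KO replicate 3 the cytokinesis genes are all below 0.

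Genes of cytokinesis had the lowest median fold change of the 8 role groups, and the passenger complex the highest. None of the 6 cytokinesis genes passed in edgeR, DESeq2 or limma-voom. At an unadjusted p under 0.05 there were 0, beside 30.7% of all genes tested. Their median log2 fold change was -0.01, beside 0.49 for the 4 passenger complex genes. No test of that difference between groups of genes was made. Kif20a, a kinesin of the central spindle, had 61.4, 71.8 and 43.7 CPM in Y-KO and 69.2, 74.4 and 68.7 CPM in Y-Scr (log2 fold change -0.26, SE 0.16, edgeR adjusted p = 0.324). Y-KO replicate 3 was by far the lowest library, at -0.69 on the log2 CPM scale from the Y-Scr mean. Kif23, a subunit of centralspindlin, had 83.8, 91.7 and 71.1 CPM in Y-KO and 70.8, 75.3 and 77.2 CPM in Y-Scr (log2 fold change 0.14, SE 0.11, edgeR adjusted p = 0.423). Its partner Racgap1 was at 0.08, the microtubule bundler Prc1 at 0.01, the cytokinesis regulator Ect2 at -0.02 and the contractile ring scaffold Anln at -0.09. In all 6 genes Y-KO replicate 3 stood below the Y-Scr mean, by -0.02 to -0.69 on the log2 CPM scale. The mean log2 CPM of the cytokinesis genes exceeded that of the passenger complex by 0.09, 0.26 and 0.29 in Y-KO replicates 1, 2 and 3, and by 0.60, 0.77 and 0.75 in Y-Scr. These role groups were picked as the extremes of the 8, so that difference restates their fold changes and is a description only.

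The 3 genes of chromosome structure and surface, which include the proliferation markers Mki67 and Top2a, did not pass in edgeR, DESeq2 or limma-voom. At an unadjusted p under 0.05, 1 was higher, beside 15.1% of all genes tested. Mki67, encoding the Ki-67 antigen that coats mitotic chromosomes, had 308, 296 and 251 CPM in Y-KO and 231, 248 and 256 CPM in Y-Scr (log2 fold change 0.22, SE 0.10, edgeR adjusted p = 0.161). Top2a, encoding the topoisomerase that untangles sister chromatids, had 380, 378 and 306 CPM in Y-KO and 293, 324 and 325 CPM in Y-Scr (log2 fold change 0.18, SE 0.10, edgeR adjusted p = 0.291). In both, Y-KO replicates 1 and 2 lay above Y-Scr and replicate 3 within it. Cdca2, a targeting subunit of protein phosphatase 1, had a log2 fold change of 0.17. The fold changes of Mki67 and Top2a, 1.16-fold and 1.13-fold, were smaller than that of any of the 9 called genes.

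Per kilobase of summed exon length, the levels of the 45 genes spanned a wide range. Ccnb2 was the highest, at a mean of 75.8 RPKM in Y-KO and 65.7 RPKM in Y-Scr, followed by Cdc20 at 54.9 and 42.7 RPKM. Cdc25c was the lowest in Y-KO, at 4.56 RPKM against 4.65 RPKM in Y-Scr. Ttk was the lowest in Y-Scr, at 4.75 RPKM in Y-KO and 3.71 RPKM in Y-Scr. The exon length counts every annotated exon, so that genes with many unused exons read too low. Across libraries of a group the genes had a median SD of 12.8% of the mean in Y-KO and 5.08% in Y-Scr. Y-KO replicates 1 and 2 differed by a median of 4.03%. Y-KO replicate 3 stood a median of -0.32 from the mean of these replicates on the log2 CPM scale. The genes lay on 18 chromosomes, with 7 on chromosome 2.

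Other genes of the programme were taken from lists of known cell cycle genes. Of 66 other mitosis genes tested, 13 rose and 0 fell in edgeR, beside 7.82% and 8.27% of all genes. At an unadjusted p under 0.05, 23 were higher, beside 15.1% of all genes, and 0 lower. DESeq2 called 19 higher, beside 10.3%, limma-voom 15, beside 8.55%, and neither called any lower. The median log2 fold change was 0.27. Mad1l1, a checkpoint protein gene, had 88.5, 89.5 and 68.8 CPM in Y-KO and 49.4, 46.4 and 40.5 CPM in Y-Scr (log2 fold change 0.86, SE 0.13, edgeR adjusted p = 0.00350). Cenph, of the inner kinetochore, and Cdca5, which encodes the cohesin protector sororin, had log2 fold changes of 0.87 and 0.71 (edgeR adjusted p = 0.00599 and 0.00941). Y-KO replicate 3 lay below the mean of Y-KO replicates 1 and 2 in 61 of the 66 genes. Wee1, encoding the kinase that holds Cdk1 inactive, was not among these 61. It had 76.9, 77.4 and 197 CPM in Y-KO replicates 1, 2 and 3 and 27.9, 32.1 and 35.9 CPM in Y-Scr (log2 fold change 1.87, SE 0.35, edgeR adjusted p = 0.00909). Leaving out Y-Scr replicate 1 or 2 ended the call of Wee1 (edgeR adjusted p = 0.0574 and 0.0511), and leaving out Y-Scr replicate 3 ended that of Cdca5 (edgeR adjusted p = 0.0543). The count of 13 ran from 3 to 37 when 1 library was left out, beside 2.45% to 16% of all genes higher. It was 0 with the close pairs summed, beside 0.7%.

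**Figure D4:**
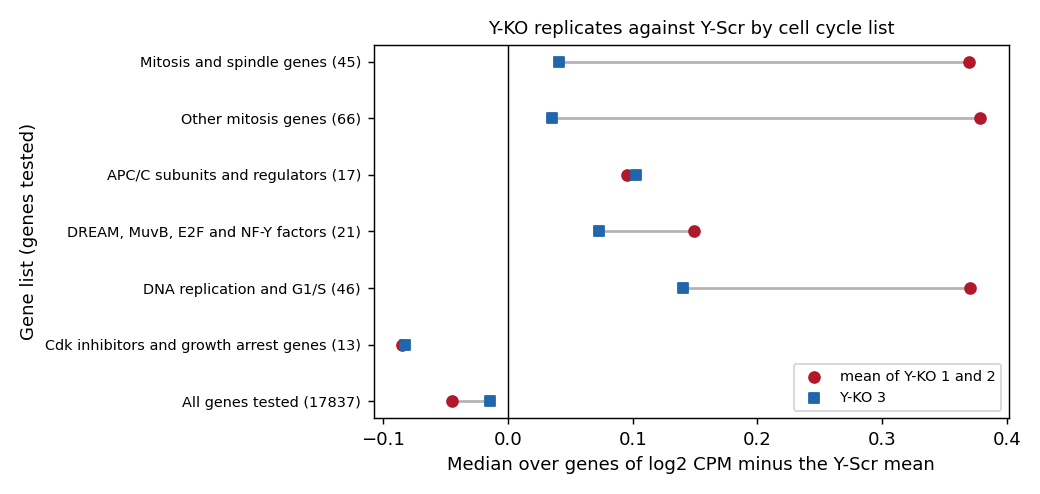
Median over the genes of each list of log2 CPM minus the Y-Scr mean, for the mean of Y-KO replicates 1 and 2 (circles) and for Y-KO replicate 3 (squares). Replicates 1 and 2 stand at 0.37 and 0.38 in the mitosis lists and replicate 3 at 0.04 in both, replication genes stand at 0.37 and 0.14, and the 2 medians lie close together for the APC/C subunits and the Cdk inhibitors, whose single genes can still differ between the replicates.

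Of 46 DNA replication and G1/S genes tested, 12 rose and 0 fell in edgeR, beside 7.82% and 8.27% of all genes. At an unadjusted p under 0.05, 25 were higher, beside 15.1% of all genes, and 0 lower. DESeq2 called 20 higher, beside 10.3%, limma-voom 14, beside 8.55%, and neither called any lower. Cdt1, a replication licensing factor gene, had 90.7, 108 and 84.3 CPM in Y-KO and 61.6, 53.6 and 56.0 CPM in Y-Scr (log2 fold change 0.72, SE 0.11, edgeR adjusted p = 0.00418). Uhrf1, which maintains DNA methylation, Chaf1b, a subunit of a chromatin assembly factor, and the helicase subunit gene Mcm7 had log2 fold changes of 0.66, 0.75 and 0.52. The mean log2 CPM of the 45 mitosis genes exceeded that of the replication genes by 0.79, 0.78 and 0.72 in Y-KO replicates 1, 2 and 3 and by 0.78, 0.83 and 0.83 in Y-Scr, so the balance between the lists overlapped between the groups. The count of 12 ran from 4 to 29 when 1 library was left out, beside 2.45% to 16% of all genes higher. It was 0 with the close pairs summed, beside 0.7%.

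Among 17 subunits and regulators of the APC/C, none passed in edgeR, beside 16.1% of all genes. At an unadjusted p under 0.05, 3 were higher, beside 15.1% of all genes. DESeq2 and limma-voom called 3 each, all higher, beside 10.3% and 8.55% of all genes higher. Those nearest the threshold were the inhibitor gene Fbxo5, the subunit gene Anapc5 and the ubiquitin-conjugating enzyme gene Ube2s, with edgeR adjusted p of 0.0549, 0.0570 and 0.0618. Of 21 DREAM, MuvB, E2F and NF-Y factors, 1 rose and 2 fell in edgeR. This was 14.3% called, beside 16.1% of all genes, a share near that of all genes. At an unadjusted p under 0.05 there were 10, beside 30.7% of all genes. Of these 10, 7 were higher, beside 15.1% of all genes, and 3 lower. DESeq2 called 3 higher and 2 lower, beside 21.5% of all genes called in either direction and 10.3% called higher. For limma-voom it was 2 higher and 2 lower, beside 18.4% in either direction and 8.55% higher. Mybl2, the B-Myb factor that joins MuvB to switch on late cell cycle genes, had 45.1, 52.1 and 28.9 CPM in Y-KO and 23.2, 21.1 and 20.1 CPM in Y-Scr (log2 fold change 0.97, SE 0.20, edgeR adjusted p = 0.0141). Rbl2, the pocket protein p130 of the repressive DREAM complex, had 29.5, 29.7 and 37.4 CPM in Y-KO and 44.3, 52.1 and 51.5 CPM in Y-Scr (log2 fold change -0.61, SE 0.13, edgeR adjusted p = 0.0138). E2f6, a repressor, was the other that fell (log2 fold change -1.25, edgeR adjusted p = 0.0267). None of the 3 calls, of Mybl2, Rbl2 and E2f6, was kept without Y-Scr replicate 2 or 3, with edgeR adjusted p from 0.0667 to 0.110. Rbl2 was also lost without Y-KO replicate 1 or 2, and E2f6 without Y-KO replicate 2 or Y-Scr replicate 1.

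Of 13 Cdk inhibitors and growth arrest genes tested, 2 fell and 0 rose in edgeR. This was 15.4% called, beside 16.1% of all genes, again a share near that of all genes. At an unadjusted p under 0.05, 1 was higher and 3 lower, beside 30.7% of all genes in either direction. DESeq2 called 1 higher and 3 lower, beside 21.5% of all genes in either direction, and limma-voom 0 higher and 3 lower, beside 18.4%. The antiproliferative gene Btg2 had 55.4, 54.8 and 26.5 CPM in Y-KO and 88.5, 92.2 and 91.9 CPM in Y-Scr (log2 fold change -0.995, SE 0.24, edgeR adjusted p = 0.0267). Cdkn2d, encoding an inhibitor of Cdk4 and Cdk6, had a log2 fold change of -0.32 (edgeR adjusted p = 0.0447). Both calls were lost without Y-Scr replicate 1, 2 or 3, and that of Cdkn2d also without Y-KO replicate 1 or 2. Cdkn1b, encoding p27, and Cdkn1a, encoding p21, did not pass, with log2 fold changes of -0.40 and 0.45 (edgeR adjusted p = 0.0541 and 0.102).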

How the data were processed

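Per the labels, RNA of CD45-negative cells from 3 Y-KO and 3 Y-Scr tumour samples was made into poly-A stranded libraries. The authors' deposited table holds whole-number read counts by gene, made with featureCounts 1.5.3 and Ensembl release 112 on GRCm39, per the file headers, with no strand or pair option, so overlapping or antisense genes are uncertain. Of counts from 2 to 20, 80.3% to 82.4% were even, as both reads of a pair counted singly would give, so counts overstate the number of fragments. Trimmomatic 0.39 and STAR 2.5.2b are named in the submitters' processing notes. Symbols were matched by gene ID for 51880 of 57186 genes. Counts were tested with edgeR 4.0.16 (R 4.3.3, filterByExpr with a minimum count of 10, TMM, group alone in the model, called at an adjusted p under 0.05), checked on simulated counts. The SE is the log2 fold change over the root of F. Per-library comparisons used log2 CPM with a prior count of 2. Alternatives were DESeq2 1.42.0, limma-voom (limma 3.58.1), other scalings, no filter, a replicate block, close pairs summed and each library left out. Fully described genes are the 2 with the smallest p in each role, the proliferation markers Mki67, Top2a, Cdk1 and Ccnb1, and the highest and lowest per length in Y-Scr. Cdc20, Birc5, Incenp and Nusap1 are given in full outside this rule, chosen after their values were seen. From each other list at most 4 genes, by p, are named. Ect2, Prc1 and Bub3 have 2 promoters. The members and lists were chosen with earlier results of these data known. Plots used matplotlib 3.10.9.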

Additional observations from a re-analysis of the deposited data

How the results depend on the processing

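The count of all genes called, 2871 by edgeR (1395 higher and 1476 lower in Y-KO), ran from 1037 to 6393 when 1 library was left out and was 496 with the close pairs summed. With library size alone the split became 730 higher and 2255 lower. The 9 mitosis and spindle genes called higher became 17 with no filter on low counts, 17 with the DESeq2 test, 1 with library size alone, 0 with the close pairs summed, and from 1 to 30 with 1 library left out. Apart from Ube2c, the other 8 calls were all lost without any 1 library other than Y-KO replicate 3, with edgeR adjusted p from 0.0538 to 0.174. No member was called lower, and the median log2 fold change of the 45 genes stayed positive, between 0.12 and 0.37, in all alternatives. The same-numbered libraries did not deviate together (correlations over genes of -0.00835, 0.0049 and -0.0145), and the libraries did not each correlate best with their own number, so the numbers pair nothing. With the replicate number as a block 7 mitosis genes and 2066 genes in all were called. Fits without Y-KO replicate 3 or Y-Scr replicate 1 keep only a close pair in that group, so their spread may be too small. The lowest count of a member in a library was 783, and whether depth limits the calls was not tested.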

Other observations

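Across the 45 genes, the log2 fold change was lower for longer genes, with a Spearman correlation of -0.37 between fold change and summed exon length. This is a description over genes that share the same 6 libraries and are not independent.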
